A study of Mus musculus with 22 samples.

Results

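The effect of Nanog induction on the transcriptome of mouse embryos was compared between E9.5 and E7.5, as the difference between the response at E9.5 (induced minus control) and the response at E7.5 (induced minus control). All libraries of the Nanog line were used, which were 10 of the 22 in the series. The remaining 12 libraries came from an Oct4 line and were used only for comparison. RNA came from pools of whole embryos of the C57BL/6 background, and every Nanog library, controls included, carried the genotype ROSA26tg/+; Nanogtg/+. The E9.5 embryos were pooled by 3, with 3 induced pools (dox+, replicates 1, 2 and 3) and 2 control pools (dox-, replicates 2 and 3). The E7.5 embryos were pooled by 8 to 12, with 3 induced pools (replicates 1, 3 and 4) and 2 control pools (replicates 2 and 3). For E9.5, doxycycline was given to the mothers in the water from E6.5 onward. For E7.5, it was injected at E4.5 and then given in the water. Stage therefore cannot be told apart from the route, the start and the length of treatment. No group received doxycycline without the transgene, and the promoter and cell types that drive it are not given in the sources used here. Since the replicates are pools, the p-values measure the spread between pools.

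Nanog is a homeodomain transcription factor of pluripotent cells. In the mouse it is active in the inner cell mass, in the posterior epiblast around gastrulation and in primordial germ cells, and it is switched off as the epiblast gives rise to the germ layers. Embryonic stem cells that are forced to express it resist differentiation. At E7.5 the embryo is gastrulating, and cells of the epiblast leave it through the primitive streak. At E9.5 the embryo has somites, a looped beating heart, a patterned neural tube and primitive red cells in circulation.

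Library totals ran from 4.77 to 26 M counts, and 17932 to 20543 genes were detected per library. A count of 0 allows up to 3 counts, which is 0.115 to 0.628 CPM (counts scaled to the size of the library) depending on the library; this limit covers counting error only. Stage markers were checked in the controls: the summed CPM of 35 Hox genes was 469 to 542 in E9.5 controls and 220.0 to 225 in E7.5 controls, and that of 27 heart genes was 1223 to 1628 in E9.5 controls and 422 to 426 in E7.5 controls. The labels name a pair of sequencer models without saying which was used for each library, so a sequencing batch could not be modelled and cannot be told apart from the groups. Induced and control libraries stood apart in measures other than the levels of single genes. At E9.5 the GC content of the counted genes, weighted by count, was 48.9% to 49.3% in induced pools and 48.3% to 48.4% in controls, against 48.7% to 49.1% in the other 17 libraries of the series. At E7.5 gene models shorter than 80 nucleotides summed to 0.575 to 1.08 CPM in induced pools and 31.4 to 36.7 CPM in controls. The 6 E7.5 libraries of the Oct4 line, its controls included, held 29.0 to 51.9 CPM of them. E9.5 pools of the Nanog line held 0.583 to 2.09 CPM when induced and 1.40 to 1.71 CPM as controls. In this measure the E7.5 induced pools thus stood with the E9.5 pools, and their controls with the Oct4 line at E7.5. This split of the libraries cannot be told apart from induction at E7.5, and Oct4 line controls do not remove it. At E7.5 mitochondrially encoded genes took 5.27% to 8.26% of counts in induced pools and 3.30% to 3.63% in controls.

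Nanog itself (chr6:122657507-122664651, NCBIM37) was counted at 334, 333 and 330.3 CPM in the E9.5 induced pools, against 2.30 and 1.99 CPM in E9.5 controls. Nanog at E7.5 was counted at 109, 57.7 and 124 CPM in induced pools, against 23.3 and 17.5 CPM in controls. The induced and control pools did not overlap at either stage, and the 3 induced pools were close to one another at E9.5 and spread over a wider range at E7.5. Nanog rose at E9.5 (log2 fold change 7.27, adjusted p = 0.00237 by the quasi-likelihood test of edgeR) and at E7.5 (2.23, adjusted p = 0.00902). The 2 rises differed by 5.03 ± 0.60 on the log2 scale (SE, adjusted p = 0.00373). Transgene and endogenous reads are counted together, so this difference also holds the higher endogenous level of E7.5 controls. Pou5f1, which encodes the pluripotency factor Oct4 (chr17:35642982-35647721), was counted at 1.78, 1.36 and 0.553 CPM in E9.5 induced pools, against 0.934 and 0.995 CPM in E9.5 controls. Pou5f1 at E7.5 was counted at 479.6, 572 and 619.6 CPM in induced pools, against 251 and 226 CPM in controls. It rose at E7.5 (1.22, adjusted p = 2.22e-05), and its interaction did not pass the test (-0.89 ± 0.43, adjusted p = 0.199).

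Most genes with a stage-dependent response responded at E7.5. Of 14897 genes tested, 1194 (8.02%) had a higher response at E9.5 than at E7.5 and 713 (4.79%) a lower one, at a Benjamini-Hochberg adjusted p under 0.05. The difference was at least 2-fold for 495 of the 1194 and 218 of the 713, and the response was the larger one at E7.5 for 765 and 424 of them. Within the stages, 796 genes rose (5.34%) and 621 fell (4.17%) at E9.5, while 983 rose (6.6%) and 1286 fell (8.63%) at E7.5. By at least 2-fold, 59 rose and 47 fell at E9.5, while 349 rose and 472 fell at E7.5. At both stages 216 genes were called, which is 15.2% of the E9.5 calls and 9.52% of the E7.5 calls. Over all 14897 genes tested, 2269 were called at E7.5 and 1417 at E9.5. These shares of all genes are close to the 15.2% and 9.52%, so the overlap is not read as a link between the stages. Among the 216, 88 moved in 1 direction and 128 in opposite directions. Whether these counts differ from those of unrelated responses was not tested. Across all genes tested the 2 responses, which share no library, had a Spearman correlation of 0.028, given as a description over genes that are not independent.

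The 1907 genes with a stage-dependent response fell into 5 classes. In 999 the response was called at E7.5 alone, in 502 at E9.5 alone, in 268 at neither stage, in 10 at both stages in 1 direction, and in 128 at both stages in opposite directions. The last class, called reversed here, was 0.859% of genes tested. A set of 358 genes kept the interaction call in all 20 alternative analyses. Of these, 262 belonged to the class called at E7.5 alone, 74 to the reversed class and 18 to the class called at E9.5 alone. The 74 kept the interaction call and not always the reversal. Of the 128, 7 were also called reversed with a correction for GC content and length, and 7 with Oct4 line controls.

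**Figure D1:**
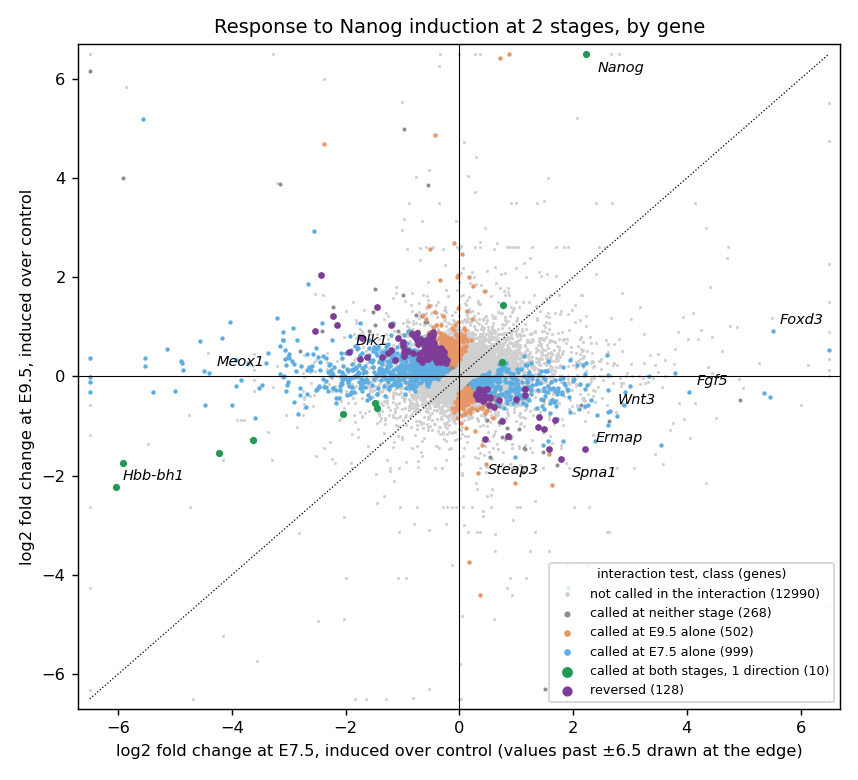
Each point is a gene; the horizontal axis gives the log2 fold change at E7.5 and the vertical axis that at E9.5, induced over control, and colours give the class of the interaction test. Genes called at E7.5 alone (999) lie along the horizontal axis, the 128 reversed genes lie in the upper left and lower right, and Nanog lies far above the dotted line of equal response.

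The E9.5 response followed the GC content of the genes. Its Spearman correlation with exonic GC content was 0.612 over 14871 genes, against 0.025 for the E7.5 response. In the 5% of genes with the lowest GC content (median 38.6%) the median log2 fold change was -0.30 at E9.5 and 0.01 at E7.5, and in the 5% with the highest (median 61.1%) it was 0.50 at E9.5 and 0.00 at E7.5. Genes that rose at E9.5 had a median GC content of 57.9%, and those that fell 42.6%, against 49.9% for all genes tested. With a correction for GC content and length, chosen after seeing the data, the E9.5 calls numbered 89 (39 higher and 50 lower, 81 of them also called without it) and the E7.5 calls 2570. The interaction calls then numbered 1090, of which 905 were also called without the correction. By class, 670 of the 999 genes called at E7.5 alone kept their interaction call with the correction, 101 of the 128 reversed genes did, and 88 of the 502 genes called at E9.5 alone did. With Oct4 line controls of the same stages in place of the Nanog line's own, these counts were 640, 86 and 99. The E9.5 calls also rested on each of the 2 E9.5 controls: 28 remained in number without E9.5 control replicate 2 and 8 without replicate 3, and the reversed calls numbered 2 and 0. Without E9.5 induced replicate 2 the E9.5 calls numbered 162.

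**Figure D2:**
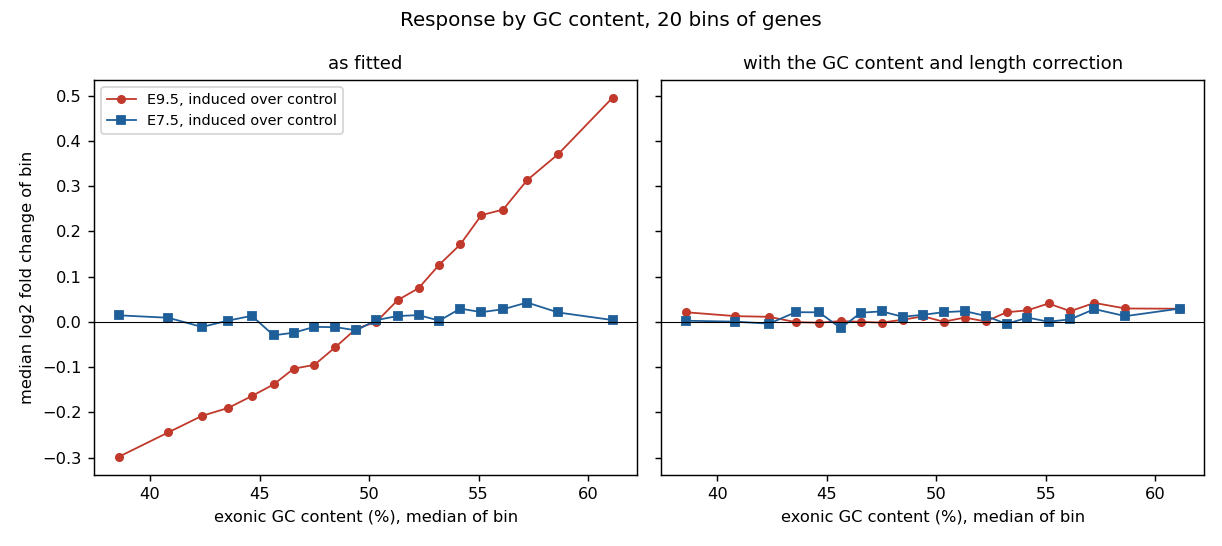
Median log2 fold change (vertical axis) against median exonic GC content in percent (horizontal axis) for genes binned by GC content, E9.5 in red and E7.5 in blue, as fitted on the left and with the GC content and length correction on the right. As fitted, the E9.5 line climbs between -0.30 and 0.50 while the E7.5 line stays near 0; with the correction both stay near 0.

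Hox genes, which give positional identity along the body axis, had the highest median interaction of the 36 gene lists followed. For each list below, the shares over all genes tested are 8.02% with a higher and 4.79% with a lower response at E9.5. Within the stages they are 5.34% up and 4.17% down at E9.5, and 6.6% up and 8.63% down at E7.5. Of 35 tested, 22 had a higher response at E9.5 than at E7.5 and 0 a lower one, and 21 of these calls were also made with the GC correction. At E7.5, 22 fell and 1 rose (Hoxd11), and at E9.5, 0 rose and 0 fell. Though not called, 31 of the 35 had an E9.5 fold change above 0. Their summed level at E9.5 was 577 to 648 CPM in induced pools and 469 to 542 CPM in controls. The median log2 fold change of the list was 0.33 at E9.5 and -2.50 at E7.5, against 0.00 and 0.01 over all genes tested. With members at 0 in a group set to their bound, the E7.5 median was -2.21. All 11 tested members of paralogue groups 1 to 4 and 8 of 11 in groups 5 to 8 fell at E7.5, as did 3 of 13 in groups 9 to 13, where 5 had a fold change above 0. The difference between these groups was not tested. Hoxb6, a trunk member, was counted at 10.5, 15.3 and 13.8 CPM in E9.5 induced pools, against 10.6 and 10.9 CPM in controls. Hoxb6 at E7.5 was counted at 0.765, 1.48 and 0.614 CPM in induced pools, against 9.18 and 7.75 CPM in controls. The groups overlapped at E9.5 and did not at E7.5, and the interaction was 3.24 ± 0.39 (adjusted p = 0.000203). Hoxb9, a thoracic member, was counted at 80.9, 79.0 and 81.1 CPM in E9.5 induced pools, against 91.5 and 67.9 CPM in controls, with the induced pools inside the range of the controls. Hoxb9 at E7.5 was counted at 0.287, 0.659 and 0.153 CPM in induced pools, against 4.67 and 3.69 CPM in controls, with no overlap. Its interaction was 3.10 ± 0.38 (adjusted p = 0.000293). The last E7.5 induced value of Hoxb9 lies under the limit of its library (0.431 CPM), so the size is uncertain. Hoxb4 was called in the same direction (2.99 ± 0.26). Hoxc8 was counted at 18.4, 14.7 and 18.8 CPM in E9.5 induced pools and 17.4 and 12.7 CPM in controls. In E7.5 induced pools it was at 0.0956, 0 and 0 CPM, against 1.24 and 2.03 CPM in controls, too few counts for a fold change.

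**Figure D3:**
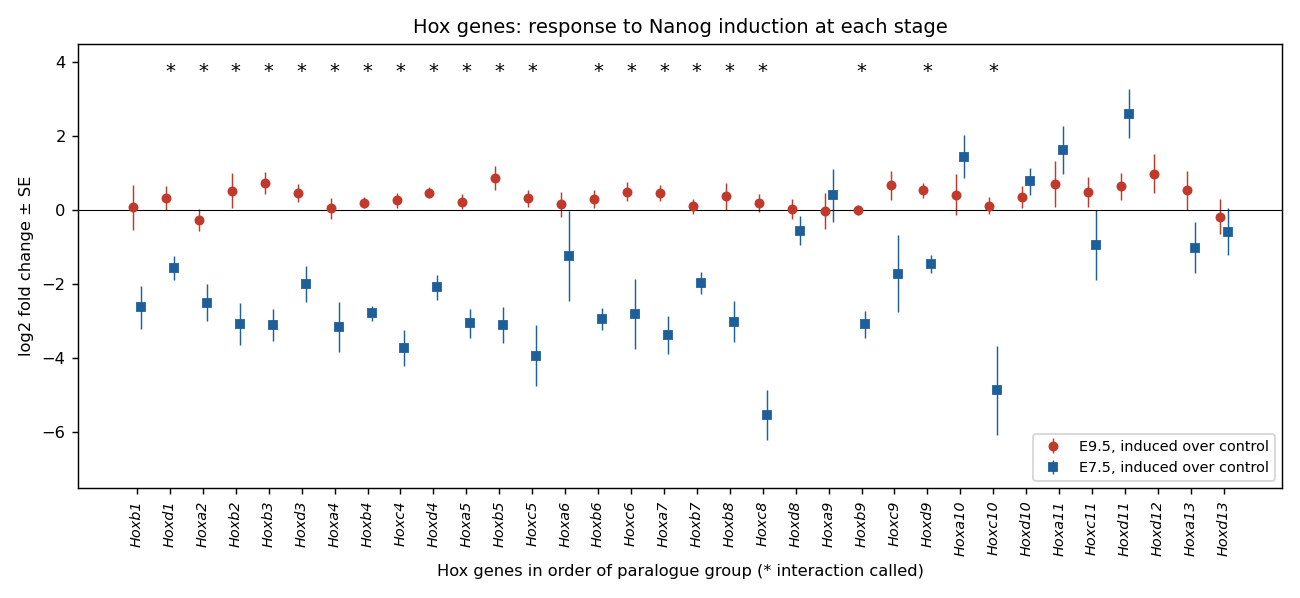
Log2 fold change with its SE (vertical axis) of the tested Hox genes that are shown, in order of paralogue group (horizontal axis), at E9.5 in red and at E7.5 in blue; stars mark genes called in the interaction. Most E9.5 points lie above 0 (31 of the 35 tested genes, median 0.33), with 0 called at E9.5. All E7.5 points of groups 1 to 8 lie below 0. Those of Hoxc8 and Hoxc10 rest on induced pools at or near 0 counts and are not sizes. Hoxd12, at 0 in every E7.5 library, has no E7.5 point.

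Of 20 tested somite and paraxial mesoderm genes, 6 had a higher response at E9.5 and 0 a lower one (median interaction 1.06, against -0.01 over all genes tested). Of these 20, 0 were called at E9.5, and 1 rose and 8 fell at E7.5. Meox1, a homeobox gene of the somites (chr11), was counted at 61.7, 71.2 and 63.6 CPM in E9.5 induced pools, against 67.9 and 57.2 CPM in E9.5 controls. Meox1 at E7.5 was counted at 0.669, 1.03 and 0.767 CPM in induced pools, against 19.6 and 18.5 CPM in controls. The groups overlapped at E9.5 and were far apart at E7.5, and the interaction was 4.47 ± 0.22 (adjusted p = 6.84e-08). Cdx1, a caudal-type regulator of Hox genes, was counted at 2.97, 4.58 and 2.76 CPM in E9.5 induced pools, against 3.55 and 2.86 CPM in E9.5 controls. Cdx1 at E7.5 was counted at 1.82, 6.92 and 2.30 CPM in induced pools, against 89.3 and 102 CPM in controls. Its interaction of 4.61 ± 0.80 passed the test (adjusted p = 0.0121), but not without E9.5 control replicate 3 (0.060), where that of Msgn1 was lost too (0.11). Msgn1, a master gene of presomitic mesoderm (3.89), Tbx6, which turns bipotent axial cells to mesoderm (2.58), Wnt3a (2.36) and Tcf15 (2.97) were called in the same direction. Cdx1, Msgn1, Tbx6 and Wnt3a belong to the streak list, in which other members rose at E7.5. Tbx4, a T-box gene of the allantois and hindlimb, was counted at 7.92, 4.58 and 10.9 CPM in E9.5 induced pools and 7.10 and 3.48 CPM in controls. Tbx4 at E7.5 was counted at 0.287, 0.329 and 0.307 CPM in induced pools and 10.3 and 12.5 CPM in controls, with no overlap (interaction 5.69 ± 0.59). The last induced value lies under the limit of its library (0.431 CPM), so the size of this interaction is uncertain.

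Of 27 heart genes, 9 had a higher response at E9.5 and 1 a lower one, against 8.02% and 4.79% of all genes tested. Of the 27, 0 were called at E9.5, and 1 was higher and 9 lower at E7.5. Nkx2-5, the early regulator of heart progenitors, was counted at 4.16, 8.64 and 3.69 CPM in E9.5 induced pools, against 2.86 and 2.30 CPM in controls, a rise that did not pass (1.10, adjusted p = 0.0788). In E7.5 induced pools it was at 0.0956, 0.123 and 0.153 CPM, against 2.49 and 1.91 CPM in controls. The interaction was called (adjusted p = 0.000489), but 2 of these 3 values lie under the limits of their libraries (0.275 and 0.431 CPM), so its fitted value is not a size. Mef2c (1.84 ± 0.22) and Tbx20 (1.84 ± 0.36), which act in the heart fields, were called in the same direction, and the exception was the natriuretic peptide gene Nppb (-3.13 ± 0.72), whose call was lost without E9.5 control replicate 2 (adjusted p = 0.067). Of the contractile genes, the troponin gene Tnni1 was called (1.87 ± 0.30). Of 18 node, notochord and ventral patterning genes, 6 had a higher response at E9.5 and 0 a lower one, with 1 higher and 0 lower at E9.5 and 3 higher and 5 lower at E7.5. Shh, the signal of node, notochord and floor plate, was counted at 18.6, 17.8 and 17.9 CPM in E9.5 induced pools, against 22.6 and 19 CPM in controls. At E7.5 it was at 0.287, 0.700 and 0 CPM in induced pools, against 8.71 and 5.72 CPM in controls, and its interaction was 3.72 ± 0.50 (adjusted p = 0.000582). With a count of 0 in an induced pool, the size of the Shh interaction is uncertain. Among 18 retinoic acid genes, 7 had a higher response at E9.5 and 1 a lower one, with 3 higher and 1 lower at E9.5 and 1 higher and 6 lower at E7.5. The receptor Rarb (2.33 ± 0.24) and the binding proteins Crabp1 (1.67 ± 0.21) and Crabp2 (1.99) were higher, and the synthetic enzyme Aldh1a3 (-1.16 ± 0.27) was lower; its call was lost without E7.5 control replicate 3 (adjusted p = 0.092). In bulk RNA of whole embryos, fewer cells of a type and less RNA per cell cannot be told apart.

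Genes of the visceral endoderm, the extraembryonic layer that feeds the early embryo, fell broadly at E7.5: 21 of 24 fell and 1 rose, with a median log2 fold change of -0.79. At E9.5, 0 rose and 1 fell (the zinc transporter gene Slc39a8, named after its value was seen). The interaction was nevertheless called for only 5, all higher at E9.5. Lrp2, the endocytic receptor megalin, was counted at 61.4, 57.1 and 57.9 CPM in E9.5 induced pools, against 71.4 and 66.3 CPM in controls. Lrp2 at E7.5 was counted at 108, 113 and 78.4 CPM in induced pools, against 251 and 294 CPM in controls, with an interaction of 1.21 ± 0.19 (adjusted p = 0.00205). The summed level of the 24 genes was 581 to 638 CPM in E9.5 induced pools and 607 to 649.95 CPM in E9.5 controls. At E7.5 it was 2973 to 4332 CPM in induced pools and 6431 to 6845 CPM in controls. The share of visceral endoderm in the dissected pools is not recorded, and its part in the other E7.5 results was not tested.

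Of 16 BMP signalling genes tested, 8 had a higher response at E9.5 and 0 a lower one (median interaction 0.87). Over all genes tested the shares were 8.02% and 4.79%. Of the 16, 4 rose and 1 fell at E9.5, and 0 rose and 10 fell at E7.5. The 4 that rose at E9.5 all fell at E7.5: the ligand Bmp7, the inhibitory mediator Smad6, and Id1 and Id3, direct targets that block basic helix-loop-helix factors. Id3 was counted at 130.2, 143 and 128 CPM in E9.5 induced pools, against 86.4 and 95.8 CPM in controls. Id3 at E7.5 was counted at 93.7, 101 and 89.9 CPM in induced pools, against 129.6 and 118 CPM in controls. As in every reversed gene, the groups did not overlap at either stage and stood in opposite order, with an interaction of 0.93 ± 0.12 (adjusted p = 0.000308). With the GC correction the E9.5 rise still passed for Id3 (adjusted p = 0.027) and not for Id1 (0.17), Bmp7 (0.39) or Smad6 (0.60). Of 14 Wnt feedback genes, 7 had a higher response at E9.5 and 0 a lower one, among them the Wnt inhibitor gene Axin2 (0.97 ± 0.18), and 3 of these calls were made with the correction.

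Imprinted genes that control fetal growth had a higher response at E9.5 in 11 of 19 cases and a lower one in 0 (median interaction 0.56). At E7.5, 0 rose and 10 fell. Dlk1, a paternally expressed growth regulator (chr12:110691033-110701546), was counted at 198, 253 and 226 CPM in E9.5 induced pools, against 160.1 and 161 CPM in E9.5 controls. Dlk1 at E7.5 was counted at 25.2, 28.2 and 22.6 CPM in induced pools, against 97.9 and 101 CPM in controls. As in every reversed gene, the groups did not overlap at either stage, and the interaction was 2.44 ± 0.15 (adjusted p = 7.81e-07). Igf2 (1.46 ± 0.11) and H19 (0.96 ± 0.10), neighbours that share an imprinting control region, also rose at E9.5 and fell at E7.5. With the GC correction none of these 3 rises at E9.5 passed (adjusted p = 0.12 for Dlk1, 0.80 for Igf2 and 0.79 for H19), while the 3 interactions did. Plagl1, a zinc finger gene linked to the same imprinted network, fell at E7.5 alone (interaction 1.45 ± 0.14). Of 19 collagen genes, 9 had a higher response at E9.5 and 0 a lower one, with Col5a1 (1.61 ± 0.13), Col2a1 (1.46 ± 0.21) and Col18a1 reversed; their E9.5 rises were lost with the correction, where 0 collagens were called at E9.5.

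Most genes of the primed epiblast rose at E7.5. Of 14 tested, 1 had a higher response at E9.5 (Lef1, lost without E9.5 control replicate 3, adjusted p = 0.11) and 8 a lower one, with a median interaction of -1.04. At E7.5, 9 rose and 0 fell. Fgf5, the growth factor that marks the primed epiblast (chr5:98683203-98706049), was counted at 0.594, 1.02 and 0 CPM in E9.5 induced pools, against 0.498 and 0.871 CPM in E9.5 controls. Fgf5 at E7.5 was counted at 63.9, 66.0 and 82.1 CPM in induced pools, against 4.36 and 4.17 CPM in controls. Fgf5 was thus near the limit of detection at E9.5 in both groups and high in every induced pool at E7.5 (interaction -4.36 ± 0.67, adjusted p = 0.0018). Foxd3, a forkhead factor of epiblast and neural crest, was counted at 3.76, 4.74 and 5.35 CPM in E9.5 induced pools, against 2.43 and 2.49 CPM in controls. Foxd3 at E7.5 was counted at 7.74, 19.3 and 20.6 CPM in induced pools, against 0.311 and 0.357 CPM in controls. Its groups did not overlap at either stage, but the E9.5 rise did not pass (0.91, adjusted p = 0.163), and the interaction was called (adjusted p = 0.00202). Its E7.5 controls lie near their limits of 0.455 and 0.351 CPM, so the fitted value is not a size. The methyltransferase gene Dnmt3b was counted at 68.7, 74.1 and 66.9 CPM in E9.5 induced pools, against 60.2 and 59.0 CPM in controls. Dnmt3b at E7.5 was counted at 1500.4, 1746 and 1575 CPM in induced pools, against 708 and 702 CPM in controls (interaction -0.96 ± 0.11, adjusted p = 0.000173). Otx2 (-1.48 ± 0.18), Zic2 (-1.13 ± 0.14), the kinase gene Pim2 (-1.63 ± 0.15) and the arginine transporter gene Slc7a3 (-1.85 ± 0.27) were also called. Zic5 was the reversed member: it rose at E7.5 and fell at E9.5 (-1.53 ± 0.13), where its call was lost with the GC correction (adjusted p = 0.11).

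Of 18 Nodal pathway genes, 9 rose and 1 fell at E7.5, while 3 had a higher response at E9.5 and 2 a lower one. Over all genes tested, 6.6% rose and 8.63% fell at E7.5, and 8.02% had a higher and 4.79% a lower response at E9.5. Pmepa1, a feedback inhibitor of the pathway, was counted at 2.97, 4.07 and 2.40 CPM in E9.5 induced pools, against 2.43 and 3.86 CPM in controls. Pmepa1 at E7.5 was counted at 8.89, 14.7 and 17.3 CPM in induced pools, against 1.09 and 1.55 CPM in controls (interaction -3.32 ± 0.52, adjusted p = 0.00128). The other gene called lower was Skil (-1.40 ± 0.10), a feedback repressor of SMAD signalling. Tdgf1, the Nodal co-receptor, was counted at 0.396, 1.36 and 0.369 CPM in E9.5 induced pools, against 0.747 and 0.498 CPM in controls. Tdgf1 at E7.5 was counted at 173, 192 and 341 CPM in induced pools, against 4.2 and 2.62 CPM in controls. It rose at E7.5 (6.13, adjusted p = 0.000411), and its interaction did not pass (-5.90 ± 1.59, adjusted p = 0.058). The anterior streak regulator Eomes rose at E7.5 (3.23, adjusted p = 1.66e-06) and was at 0.396, 0.169 and 0 CPM in E9.5 induced pools and 0.187 CPM in both controls. Wnt3, which starts the streak, was counted at 1.58, 2.37 and 2.58 CPM in E9.5 induced pools, against 3.49 and 3.67 CPM in controls. Wnt3 at E7.5 was counted at 19.3, 21.5 and 26.1 CPM in induced pools, against 3.89 and 3.22 CPM in controls, and its interaction was -3.35 ± 0.34 (adjusted p = 6.7e-05). The streak list as a whole divided at E7.5, where 11 of 24 rose, among them Eomes, Wnt3, Mixl1 (1.67) and Lhx1 (2.59), and 8 fell, among them Cdx1, Msgn1 and Tbx6. The interaction of Lhx1 (-2.16 ± 0.54) was called, and lost without E9.5 control replicate 3 (adjusted p = 0.13). T, which marks the whole streak, was counted at 175, 158 and 138 CPM in E7.5 induced pools, against 171 and 160.0 CPM in controls.

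**Figure D4:**
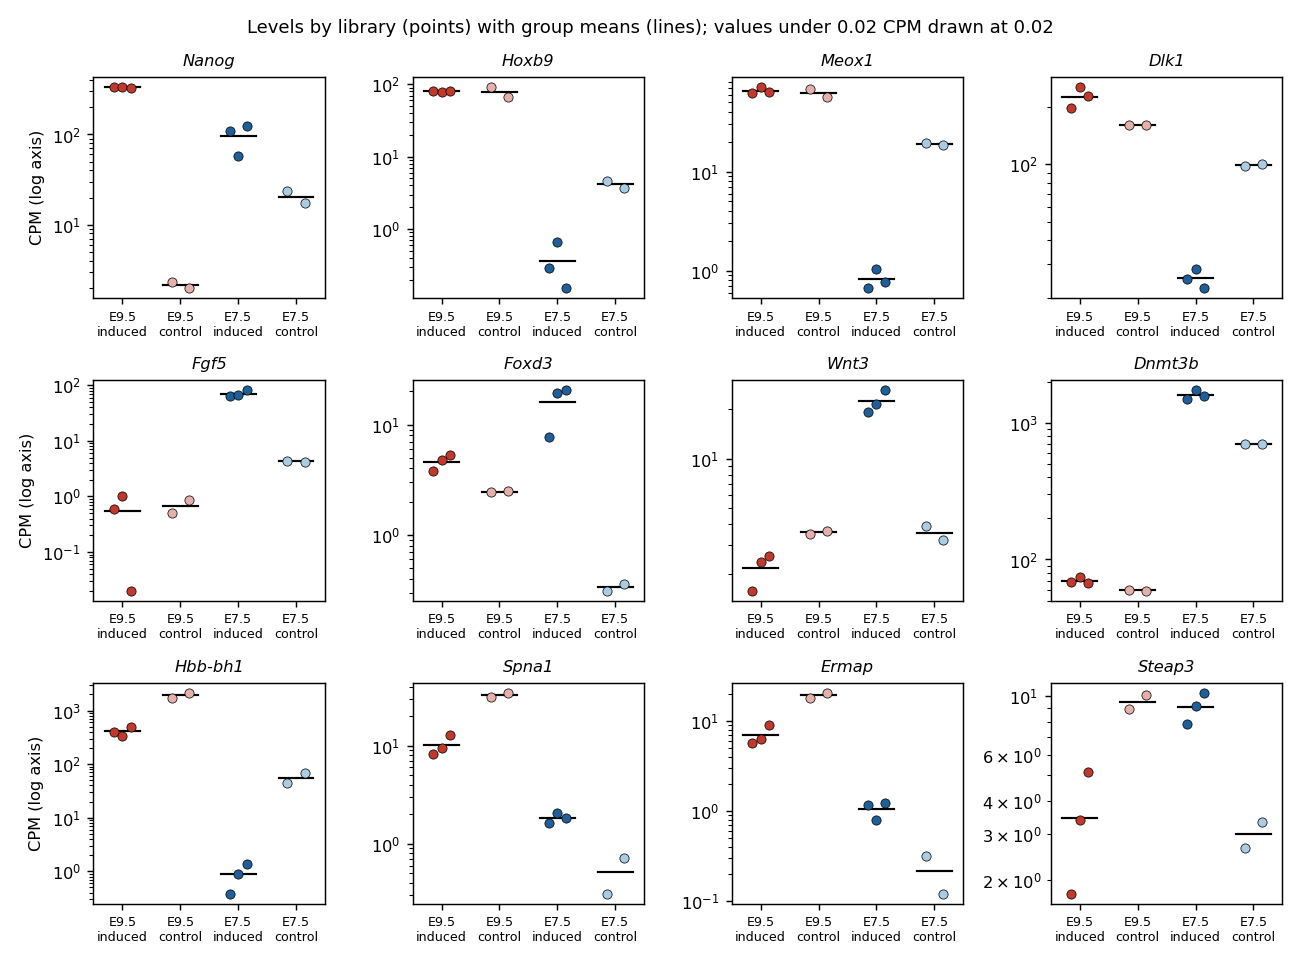
Level in CPM (log axis) of 12 genes in every library, with E9.5 induced, E9.5 control, E7.5 induced and E7.5 control pools along the horizontal axis; points are libraries and lines are group means. Hoxb9, Meox1 and Dlk1 are low in E7.5 induced pools, Fgf5, Foxd3, Wnt3 and Dnmt3b are high there, Hbb-bh1 is below its controls at both stages, and Spna1, Ermap and Steap3 are below their controls at E9.5 and above them at E7.5.

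Core pluripotency genes did not move as a block. Of 23 tested, 2 had a higher response at E9.5 and 2 a lower one. These counts are near the 8.02% and 4.79% of all genes tested and are not read as a result about the list. At E9.5, 0 rose and 2 fell. At E7.5, 8 rose and 5 fell, against 6.6% and 8.63% of all genes tested. L1td1, an RNA-binding protein gene of pluripotent cells, was lower (-1.70 ± 0.37). Sox2, which at E9.5 is mainly a neural gene, was counted at 66.9, 74.7 and 78.7 CPM in E9.5 induced pools, against 93.9 and 111 CPM in controls. Sox2 at E7.5 was counted at 43.4, 54.1 and 51.5 CPM in induced pools and 48.4 and 41.6 CPM in controls, so the groups overlapped there. It fell at E9.5 (-0.48, adjusted p = 0.0216, and 0.042 with the GC correction), and its interaction was -0.63 ± 0.16 (adjusted p = 0.0236). Lin28a (0.59 ± 0.12) and Trim71 (0.85 ± 0.23), heterochronic genes of the let-7 pathway, fell at E7.5 alone. Leaving out E9.5 control replicate 3 ended the calls of L1td1 (adjusted p = 0.053) and Trim71 (0.13), and leaving out E7.5 control replicate 3 that of Sox2 (0.14). Of 19 p53 target and cell death genes, 1 had a higher response at E9.5 and 5 a lower one; the largest was Pmaip1, which encodes the pro-apoptotic protein Noxa (-1.62 ± 0.25, adjusted p = 0.00133). Pmaip1 was counted at 9.90, 6.44 and 9.4 CPM in E9.5 induced pools and 7.34 and 6.22 CPM in controls. Pmaip1 at E7.5 was counted at 107, 82.2 and 107 CPM in induced pools and 27.5 and 23.7 CPM in controls, with no overlap.

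All 13 mitochondrially encoded genes had a lower response at E9.5, and all 13 rose at E7.5, with median log2 fold changes of -0.36 at E9.5 and 1.02 at E7.5. These 13 genes share 1 genome and move with the mitochondrial share of the libraries given above. With the GC and length correction 0 of the 13 interactions and 6 of the E7.5 rises passed, and with Oct4 line controls 1 interaction did. Of 26 nuclear genes of the respiratory chain, 0 had a higher response at E9.5 and 3 a lower one, against 8.02% and 4.79% of all genes tested.

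Of 29 primitive haematopoiesis genes, 12 had a higher response at E9.5 and 2 a lower one (median interaction 0.68). In this list 0 rose and 11 fell at E9.5, with a median log2 fold change of -0.74, and 2 rose and 14 fell at E7.5, with a median of -1.05. With the GC correction 8 of the 11 falls at E9.5 passed, and these 8 were among the 46 genes whose fall at E9.5 was called with and without it. Falls at both stages were seen for 5 genes, among them the embryonic globin gene Hbb-bh1, the erythroid transcription factor genes Gata1 and Klf1, and the red cell membrane gene Epb4.2. Another 6 fell at E9.5 and not at E7.5, where 1 of them (Spna1) rose, and 9 fell at E7.5 and not at E9.5. Hbb-bh1 (chr7:110990150-110991678) was counted at 391, 339 and 492 CPM in E9.5 induced pools, against 1694 and 2123 CPM in E9.5 controls. Hbb-bh1 at E7.5 was counted at 0.382, 0.906 and 1.38 CPM in induced pools, against 43.6 and 68.8 CPM in controls. Induced pools were below controls at both stages, and the fall was the larger at E7.5 on the log2 scale (-2.23 at E9.5 and -6.04 at E7.5, interaction 3.81 ± 0.51, adjusted p = 0.00444). Reads of globin genes can be divided between near-identical copies, which makes their values uncertain. Gata1 was counted at 3.76, 3.22 and 4.24 CPM in E9.5 induced pools, against 7.22 and 9.27 CPM in controls. Gata1 at E7.5 was counted at 7.74, 4.98 and 9.36 CPM in induced pools, against 14.9 and 20.5 CPM in controls. Its falls of -1.14 and -1.32 did not differ by the test (interaction 0.18 ± 0.39, adjusted p = 0.806).

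Of the 9 blood genes that fell at E7.5 with no call at E9.5, 8 were also called in the interaction. Among them were Tal1 (interaction 1.98 ± 0.32) and Lmo2 (1.84 ± 0.20), partner genes that specify blood and endothelium, and Nfe2 (2.39), Gfi1b (2.75) and Itga2b (3.37). Without E7.5 control replicate 3 the interactions of Nfe2 (adjusted p = 0.053) and Gfi1b (0.075) were not called. Tal1 was counted at 21.0, 21.2 and 23.6 CPM in E9.5 induced pools, against 24.8 and 27.1 CPM in controls. Tal1 at E7.5 was counted at 10.4, 9.55 and 4.45 CPM in induced pools, against 36.3 and 42.9 CPM in controls, with no overlap. Of the 6 that fell at E9.5 and not at E7.5, Tfrc and Spna1 were called in the interaction and the other 4 were not, so no stage difference was called for those. Slc4a1, the anion exchanger of the red cell membrane, was counted at 47.7, 44.9 and 64.0 CPM in E9.5 induced pools, against 119 and 133 CPM in controls (-1.27, adjusted p = 0.00422). It was at most 0.614 CPM in every E7.5 library. Hemgn, the transferrin receptor gene Tfrc (interaction -0.93 ± 0.17) and the embryonic globin genes Hba-x and Hbb-y also fell at E9.5. Slc25a37, which imports iron into erythroid mitochondria and was chosen after its values were seen, was counted at 83.5, 80.5 and 95.1 CPM in E9.5 induced pools, against 157 and 172 CPM in controls. Slc25a37 at E7.5 was counted at 45.7, 41.5 and 43.1 CPM in induced pools and 39.8 and 44.9 CPM in controls, where the groups overlapped. Its interaction was -0.96 ± 0.13 (adjusted p = 0.000485), and both that and the E9.5 fall passed with the GC correction (adjusted p = 0.00059 and 0.00038).

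**Figure D5:**
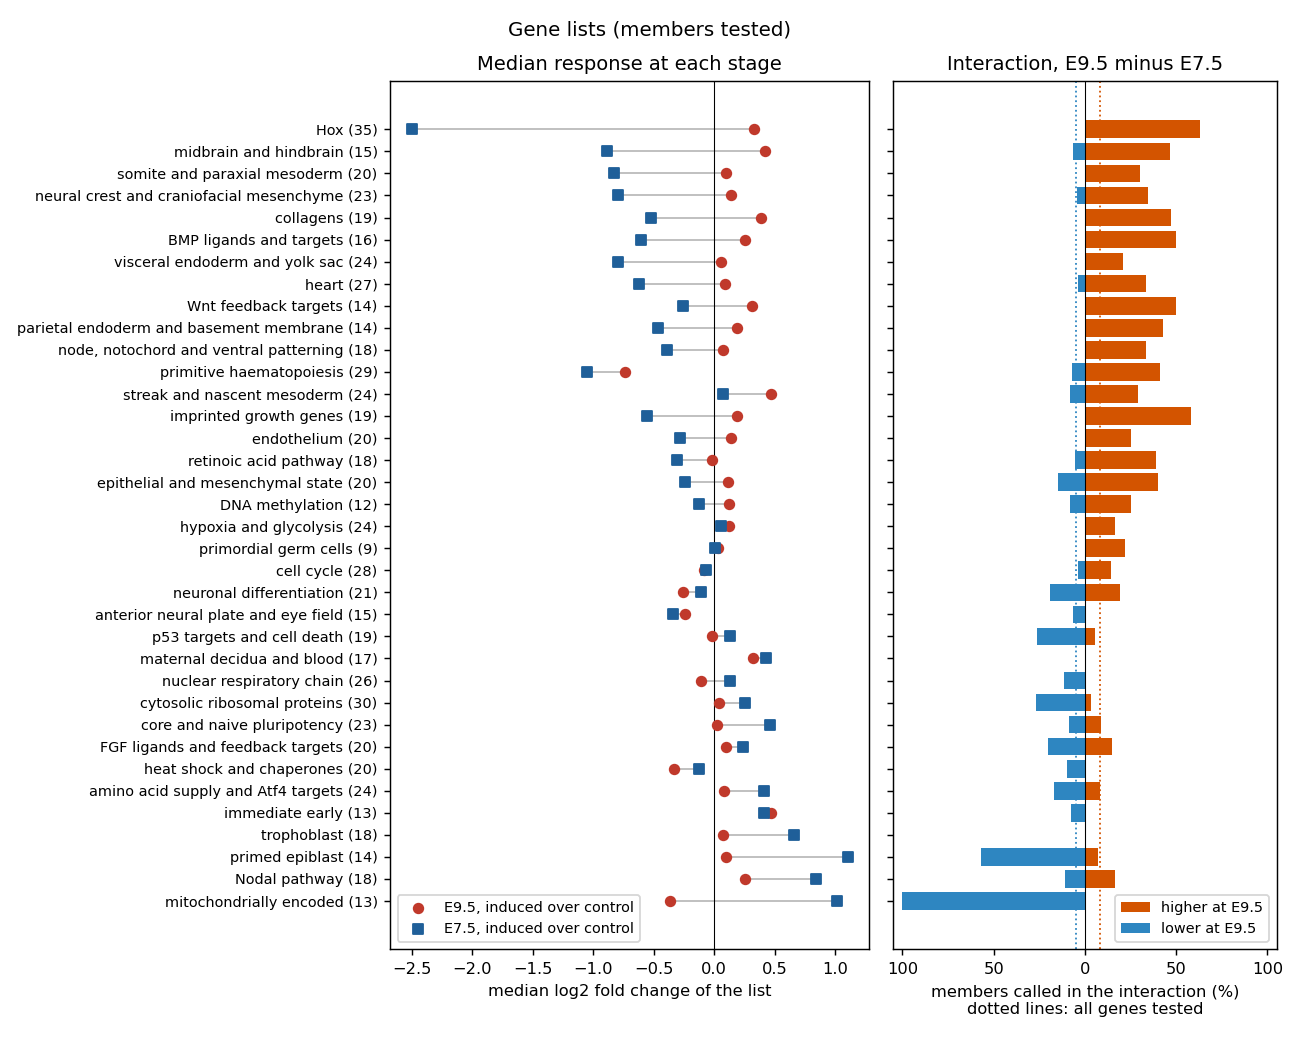
Left, median log2 fold change of each gene list (number of tested members in brackets) at E9.5 in red and at E7.5 in blue; right, percent of members called in the interaction, higher at E9.5 to the right and lower to the left, with dotted lines at the 8.02% and 4.79% of all genes tested. Hox genes have the lowest E7.5 median (-2.50), primed epiblast genes the highest (1.10), and primitive haematopoiesis is the list with the lowest E9.5 median (-0.74).

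Reversed genes were chosen by their calls, so their values are given as a description. Of the 128, 95 rose at E9.5 and fell at E7.5, and 33 fell at E9.5 and rose at E7.5. In all 95 and all 33 the induced and control pools did not overlap at either stage, so this adds nothing to a call. The medians of the 95 were 0.51 at E9.5 and -0.52 at E7.5, and 0.21 and -0.50 after the GC correction, under which 90 kept their E9.5 direction and 3 their E9.5 call. The medians of the 33 were -0.44 at E9.5 and 0.52 at E7.5, and -0.29 and 0.53 after the correction, under which 27 kept their E9.5 direction and 5 their call. The median GC content was 57.9% in the 95 and 43.0% in the 33. Pitx1, a homeobox gene of hindlimb and pituitary, was counted at 17.8, 15.3 and 18.4 CPM in E9.5 induced pools, against 8.4 and 6.34 CPM in controls. Pitx1 at E7.5 was counted at 2.39, 2.76 and 1.99 CPM in induced pools, against 12.3 and 10.7 CPM in controls (interaction 3.43 ± 0.29). Its groups stood in opposite order at the 2 stages, but its E9.5 rise did not pass with the correction (adjusted p = 0.47), nor did those of Zfp703 (0.15) and the mesoderm gene Foxf1a (0.50).

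Reversal was called for 128 genes as fitted, for 9 with the GC correction and for 17 with Oct4 line controls, and 5 genes were called reversed in all 3. All 5 fell at E9.5 and rose at E7.5: Spna1, Ermap, Steap3, Ell2 and Irs4. Spna1 encodes erythroid alpha spectrin, Ermap an erythroid membrane protein and Steap3 the endosomal iron reductase of red cell precursors. Ell2 is a transcription elongation factor, and Irs4 an adaptor of insulin receptor signalling. Where a start of transcription was listed for them by RefSeq, the 250 bases upstream of it are shown. GATA factors are known to act on many erythroid promoters. The 5 genes were chosen by their calls, and a part of GATA factors in their response was not tested. The letters AGATAA, a common form of the GATA motif, or TTATCT where the motif lies on the other strand, are in capitals. Sequences run 5′ to 3′ on the strand of the gene, in the build GRCm38.p6, which is not the build of the counts.
Ell2, chr13:75707234-75707483, plus strand: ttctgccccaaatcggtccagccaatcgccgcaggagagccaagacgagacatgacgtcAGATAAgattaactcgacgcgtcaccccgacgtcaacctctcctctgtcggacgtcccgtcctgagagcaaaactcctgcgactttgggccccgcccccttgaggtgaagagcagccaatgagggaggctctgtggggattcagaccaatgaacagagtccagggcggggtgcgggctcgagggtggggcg
Ermap, chr4:119189996-119190245, minus strand: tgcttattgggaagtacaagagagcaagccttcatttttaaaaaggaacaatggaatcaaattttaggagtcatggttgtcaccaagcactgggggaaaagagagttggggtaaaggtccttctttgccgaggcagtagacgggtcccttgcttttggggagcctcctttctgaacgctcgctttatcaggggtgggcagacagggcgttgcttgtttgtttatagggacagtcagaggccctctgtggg
Irs4, chrX:141725218-141725467, minus strand: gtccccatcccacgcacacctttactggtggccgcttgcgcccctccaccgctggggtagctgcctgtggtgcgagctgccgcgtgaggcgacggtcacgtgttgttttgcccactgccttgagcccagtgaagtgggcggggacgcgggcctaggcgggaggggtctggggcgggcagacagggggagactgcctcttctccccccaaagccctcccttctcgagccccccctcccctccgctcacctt
Steap3, first of 4 listed starts, chr1:120271081-120271330, minus strand: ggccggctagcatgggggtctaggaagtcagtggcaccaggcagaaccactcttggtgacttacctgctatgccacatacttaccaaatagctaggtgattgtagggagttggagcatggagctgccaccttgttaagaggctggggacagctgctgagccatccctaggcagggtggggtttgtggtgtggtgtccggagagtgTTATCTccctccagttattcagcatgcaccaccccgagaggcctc
AGATAA was found in the windows of Ell2 (first base 191 upstream of the start) and Steap3 (45 upstream), and not in those of Ermap and Irs4. Other forms of the GATA motif were not looked for. One of them, TGATAA, lies on the other strand of the Ermap window (TTATCA), and its share over all windows was not counted. On either strand AGATAA was found in 9.99% of the windows of all 32851 listed starts. It was found in 3 of 21 primitive haematopoiesis genes with a start (14.3%) against 11.4% of all genes. A match of these letters is a description and not a binding site, and no match says only that they are not in this window. The GC content of the 4 windows was 61.2%, 49.2%, 69.2% and 56.4% in the order printed.

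The values of these 5 genes stood in opposite order at the 2 stages, as their selection by call required. Spna1 was counted at 8.31, 9.49 and 12.9 CPM in E9.5 induced pools, against 31.0 and 34.4 CPM in E9.5 controls. Spna1 at E7.5 was counted at 1.62, 2.06 and 1.84 CPM in induced pools, against 0.311 and 0.715 CPM in controls (interaction -3.46 ± 0.43). Its groups did not overlap at either stage, though the E7.5 levels were low. Ermap was counted at 5.74, 6.27 and 9.03 CPM in E9.5 induced pools, against 18.0 and 20.6 CPM in controls. Ermap at E7.5 was counted at 1.15, 0.782 and 1.23 CPM in induced pools, against 0.311 and 0.119 CPM in controls. The 2 E7.5 control values hold 3 counts in all and lie under the limit of detection, so the fitted interaction of Ermap (-3.67 ± 0.60) depends on the prior count and is not a size. Steap3 was counted at 1.78, 3.39 and 5.16 CPM in E9.5 induced pools, against 8.90 and 10.1 CPM in controls. Steap3 at E7.5 was counted at 7.84, 9.14 and 10.3 CPM in induced pools, against 2.65 and 3.34 CPM in controls (-3.03 ± 0.43). The Steap3 groups did not overlap at either stage, with the E7.5 induced pools near the level of the E9.5 controls. Ell2 was counted at 13.3, 15.1 and 19 CPM in E9.5 induced pools, against 37.2 and 38.6 CPM in controls. Ell2 at E7.5 was counted at 29.6, 26.7 and 26.8 CPM in induced pools, against 20.9 and 19.9 CPM in controls (-1.70 ± 0.19). Without E9.5 control replicate 3 none of the 5 was called reversed. Irs4 was lower than its controls at E9.5 and higher at E7.5 as well (-2.05 ± 0.27). Spna1, Ermap and Steap3 were chosen by their calls and rose at E7.5, while Hbb-bh1, Gata1 and Klf1 fell at both stages. In the primitive haematopoiesis list 14 of 29 genes fell at E7.5 and 2 rose.

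Trh, which encodes thyrotropin-releasing hormone and marks the node and notochord at earlier stages, was counted at 21.8, 23.9 and 22.7 CPM in E9.5 induced pools, against 5.54 and 8.21 CPM in controls. Trh at E7.5 was counted at 109, 114 and 143 CPM in induced pools, against 101 and 77.0 CPM in controls. The E9.5 groups were well apart and the E7.5 groups close to each other, and the interaction was 1.27 ± 0.26 (adjusted p = 0.0099). Its E9.5 rise passed with the correction (adjusted p = 0.0084). Selenbp1, a selenium-binding protein gene chosen after its values were seen, was counted at 11.7, 14.2 and 22.7 CPM in E9.5 induced pools, against 2.61 and 2.36 CPM in controls. Selenbp1 at E7.5 was counted at 2.77, 2.92 and 4.14 CPM in induced pools and 4.2 and 2.74 CPM in controls, where the groups overlapped (interaction 2.80 ± 0.46). Acp5, the acid phosphatase of osteoclasts and macrophages, likewise chosen after its values were seen, fell at E9.5 alone (-2.25 ± 0.32, adjusted p = 0.000588). It was counted at 3.17, 2.71 and 3.32 CPM in E9.5 induced pools and 9.71 and 11.3 CPM in controls.

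The stage difference was set against that of the Oct4 line, which was treated and sampled at the same stages and shares no library with the Nanog line. In 1 model over all 22 libraries, 2205 of 16067 genes tested had a stage-dependent response to Nanog and 1079 of 16067 to Oct4. Both were called for 559, which is 25.4% of the Nanog calls and 51.8% of the Oct4 calls, and 550 of these had the same direction. Each share is above that of all genes tested called in the other line, and the overlap was not tested. The difference between the 2 interactions itself was called for 93 of 16067 genes (0.579%), 46 higher and 47 lower in the Nanog line, and 68 of these were also called in the interaction of the 10 Nanog libraries. For 17 the call held in every analysis without 1 library, among them Pou5f1, Trh, Sp5, Slc25a37, Pim2, Ell2 and Car2. The values that follow are log2 interactions (E9.5 minus E7.5) of that model, Nanog line first.

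Each line's own transgene was among the 93: Nanog had 5.03 ± 0.43 in the Nanog line and -0.19 ± 0.77 in the Oct4 line, and Pou5f1 had -0.89 ± 0.47 and 7.00 ± 0.25. Trh had 1.26 ± 0.23 in the Nanog line and -1.12 ± 0.24 in the Oct4 line (difference 2.39 ± 0.33, adjusted p = 0.00202). Sp5, a Wnt target, had 0.94 ± 0.23 in the Nanog line and -0.87 ± 0.19 in the Oct4 line (1.81 ± 0.30, adjusted p = 0.00668). Trh and Sp5 thus had interactions of opposite sign in the 2 lines, but the interaction of Sp5 in the 10 Nanog libraries was lost with the GC correction (adjusted p = 0.30). Among the BMP genes, Bmp7 had 0.95 in the Nanog line and -0.12 in the Oct4 line (difference 1.07 ± 0.20). Id3 had 0.92 and 0.08 (difference 0.85 ± 0.17). Among the blood and reversed genes, Slc25a37 had -0.97 ± 0.14 in the Nanog line and 0.67 ± 0.12 in the Oct4 line (-1.64 ± 0.19, adjusted p = 9.58e-05). Ell2 also differed (difference -1.71 ± 0.25). The carbonic anhydrase gene Car2 had -2.42 in the Nanog line and -0.08 in the Oct4 line (difference -2.34 ± 0.39). Steap3 had -3.04 and -0.44 (difference -2.61 ± 0.54). The calls of Bmp7, Id3 and Steap3 did not hold in every analysis without 1 library. Pim2 had -1.64 ± 0.23 in the Nanog line and 0.06 ± 0.18 in the Oct4 line (-1.70 ± 0.29, adjusted p = 0.0087). In the Oct4 line Pim2 was higher at both stages (1.51 at E9.5 and 1.45 at E7.5). The Hox genes named above were not among the 93; Hoxb9 had an interaction of 3.77 in the Oct4 line.

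Markers of cell types that the pools could also hold were followed beside these results. Of 17 maternal decidua and blood genes, 0 were called in the interaction, at E9.5 or at E7.5. Their summed level was 178 to 194 CPM in E9.5 induced pools and 128 to 136 CPM in E9.5 controls, and 374 to 660.1 CPM in E7.5 induced pools and 529.8 to 548 CPM in E7.5 controls. None of the 17 was at 0 in an induced group, and 2 were at 0 in E9.5 controls. Of 18 trophoblast genes, 0 were called in the interaction, and 4 rose and 1 fell at E7.5. Their median log2 fold change was 0.08 at E9.5 and 0.66 at E7.5, where 12 of the 18 were above 0. The median interaction was -0.78, against -0.01 over all genes tested. Their summed level was 1069 to 1199 CPM in E9.5 induced pools and 1119 to 1262 CPM in E9.5 controls, and 2418 to 3288 CPM in E7.5 induced pools and 2520.1 to 2723 CPM in E7.5 controls. Summed maternal levels were thus higher in every E9.5 induced pool than in E9.5 controls. Summed trophoblast levels overlapped at both stages, though most trophoblast genes were above their controls at E7.5. The part of maternal and trophoblast tissue in the results above was not tested.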

How the data were processed

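RNA of whole-embryo pools was sequenced, and the authors deposited expected counts per Ensembl gene, with RSEM 1.17, cutadapt, Picard and NCBIM37 named per the submitters' processing notes. The expected counts were rounded to whole numbers before testing; 82.3% to 87.2% of a library's values were whole already. The strand of the reads is not stated. The tables held 37680 gene IDs, of which 37309 matched the GENCODE vM1 annotation, and all columns were mapped to samples by name. Per library, the totals of E9.5 induced pools were 4.77, 5.63 and 5.15 M counts, of E9.5 controls 15.8 and 15.7, of E7.5 induced pools 10.9, 26 and 6.95, and of E7.5 controls 6.59 and 8.54 M counts.

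After filtering on low counts and TMM scaling, 14897 genes were fitted in 1 group-means model over the 10 Nanog libraries with the robust quasi-likelihood F test of edgeR 4.0.16 (R 4.3.3). Tests were two-sided, and p-values were adjusted over all genes tested by Benjamini-Hochberg, with a call at 0.05. Values after ± are SE. The difference from the Oct4 line was fitted over 22 libraries. Alternatives were DESeq2 1.42.0, limma-voom 3.58.1, other scaling and filters, Oct4 line controls, a replicate block, libraries left out in turn, and, added after seeing the data, a correction for GC content and length. Counts were simulated for 14430 genes, with changes put into 50 genes of each kind, drawn from those with a mean of at least 5 CPM. Unchanged genes had the same mean level in all libraries, with no stage difference and no shift by GC content. Of the 50 with a log2 change of 1 reversed between the stages, 96% were called in the right direction in the interaction and 82% were called reversed. Of genes with a log2 change of 1 at E9.5 alone 66% were called, and at E7.5 alone 60%. These shares do not cover lower genes or shifts between libraries like those described above.

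The members and gene lists (699 of 709 symbols matched to 1 gene model) were chosen with earlier results of these data known. Genes were named by a rule: Nanog and Pou5f1; the 12 largest reversed genes in each direction at 5 CPM or more; the 12 highest and 12 lowest interactions measurable at both stages and the 8 highest and 8 lowest measurable at 1; members of the pluripotency, epiblast, Nodal, streak, Hox and blood lists; and up to 4 members of every other list by lowest p. Genes outside it are marked where they are named. Results for some genes are not reported here.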

Additional observations from a re-analysis of the deposited data

Results flagged for a closer look

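The Nanog response differed between E9.5 and E7.5, by the test of the interaction itself, for 1907 genes, and reversed for 128. The stage difference itself differed between the Nanog and Oct4 lines for 93 genes. Reversed as fitted, with the GC correction and with Oct4 line controls were Ell2 (interaction -1.70), Ermap (-3.67), Irs4 (-2.05), Spna1 (-3.46) and Steap3 (-3.03), all lower than their controls at E9.5 and higher at E7.5. The E7.5 control values of Ermap hold 3 counts in all.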

How the results depend on the processing

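The interaction calls numbered 1907 in the reported analysis and 1667 to 2468 with DESeq2, RLE scaling, limma-voom, no filter, mitochondrial and short gene models left out, 22 libraries, Oct4 line controls or the replicate block. With the GC content and length correction they numbered 1090. The E9.5 calls (1417) numbered 90 with Oct4 line controls, 89 with the GC correction, 288 with the GC correction and the replicate block, and 3772 with each stage fitted alone. The E7.5 calls (2269) numbered 5137 with Oct4 line controls and 1099 with each stage fitted alone. Reversed genes (128) numbered 17 with Oct4 line controls, 9 with the GC correction and 33 with the GC correction and the block. The difference from the Oct4 line (93) numbered 339 with DESeq2. The causes were not tested.

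Whether replicate numbers pair the samples could not be decided. Deviations of same-numbered pools had correlations of -0.058 and 0.014 at E9.5 and 0.021 at E7.5. The deviations of 2 control pools from their mean mirror each other, so every such correlation occurs with both signs. With the number as a replicate block the calls were 2468 for the interaction, 3115 at E9.5, 1843 at E7.5, 191 reversed and 29 for the difference from the Oct4 line.

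Without 1 library the counts ran from 807 to 2376 for the interaction, 8 to 2256 at E9.5, 909 to 2729 at E7.5, 0 to 233 reversed and 29 to 376 for the difference from the Oct4 line. The lowest interaction count came without E7.5 control replicate 3, and the other control pools gave 953, 810 and 812; E9.5 induced replicate 2 gave 1192.

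Of named genes, the interaction changed sign with Oct4 line controls for Gzmd (-1.79), Acvr2b (-0.45), Rps4x (0.035), Cox5a (0.15), Cox6c (0.042), Rpl30 (0.095), Hspa8 (0.12), Cth (0.12) and Rps24 (0.096). It did so with the GC correction for Zfpm1 (-0.086) and Mbd3 (-0.055), and with the GC correction and block for Zfpm1 (-0.026), Cited1 (-0.13) and Mbd3 (-0.17). Groups of 2 and 3 pools and the low depth of the E9.5 induced pools limit what could be called among low genes.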

Other observations

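Further gene groups are described here by their counts and median log2 fold changes, beside the 8.02% of genes with a higher and 4.79% with a lower response at E9.5. Of 15 midbrain and hindbrain genes, 7 had a higher and 1 a lower response at E9.5 than at E7.5; 1 rose and 0 fell at E9.5 (median 0.42), and 1 rose and 7 fell at E7.5 (median -0.89). Of 23 neural crest and craniofacial genes, 8 had a higher and 1 a lower response at E9.5 than at E7.5; 2 rose and 0 fell at E9.5 (median 0.14), and 3 rose and 9 fell at E7.5 (median -0.79). Of 20 endothelial genes, 5 had a higher and 0 a lower response at E9.5 than at E7.5; 1 rose and 0 fell at E9.5 (median 0.14), and 1 rose and 4 fell at E7.5 (median -0.28). Of 24 genes of amino acid supply and Atf4 targets, 2 had a higher and 4 a lower response at E9.5 than at E7.5; 2 rose and 0 fell at E9.5 (median 0.08), and 7 rose and 2 fell at E7.5 (median 0.41). Of 30 cytosolic ribosomal protein genes, 1 had a higher and 8 a lower response at E9.5 than at E7.5; 4 rose and 2 fell at E9.5 (median 0.04), and 15 rose and 0 fell at E7.5 (median 0.26). Of 20 heat shock and chaperone genes, 0 had a higher and 2 a lower response at E9.5 than at E7.5; 0 rose and 11 fell at E9.5 (median -0.33), and 0 rose and 3 fell at E7.5 (median -0.12). Of 24 hypoxia and glycolysis genes, 4 had a higher and 0 a lower response at E9.5 than at E7.5; 2 rose and 0 fell at E9.5 (median 0.12), and 3 rose and 3 fell at E7.5 (median 0.05). Of 9 primordial germ cell genes, 2 had a higher and 0 a lower response at E9.5 than at E7.5; 0 rose and 0 fell at E9.5 (median 0.03), and 1 rose and 2 fell at E7.5 (median 0.01). With the GC correction 2 heat shock genes fell at E9.5.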
